A study of Mus musculus with 7 samples.

Results

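The proteasome was examined in mature and immature bone marrow-derived dendritic cells (BMDCs). Its members were the genes that the deposited annotation places in the KEGG proteasome pathway and whose symbols begin with Psm or Pomp. The rule gave 43 of 28666 genes. They comprise 5 interferon-inducible subunits (Psmb8, Psmb9, Psmb10, Psme1 and Psme2), 33 constitutive subunits and 5 others, namely the inhibitor Psmf1, the assembly factor Pomp, the Psme2 copy Psme2b, the germ line subunit Psma8 and the thymic subunit Psmb11. By name, 3 further genes of the same KEGG pathway fell outside the rule.

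Bone marrow cells of female C57BL/6 mice aged 6 to 8 weeks were cultured for 7 days with GM-CSF at 20 ng/mL and IL-4 at 10 ng/mL. The resulting BMDCs were placed in a Transwell system with MC38, a mouse colon carcinoma line, and were sorted by flow cytometry into an immature group with 3 libraries and a mature group with 4. The study describes 24 h with the glutamine antagonist DON before the sort, and its legend names either the solvent DMSO or 5 μM DON, while the sample labels give no treatment, so both groups share the co-culture and the agent each library received is not given in the sources used here. The study states in general that its data come from independent biological experiments, but the labels do not tie a library to a mouse or culture, and the surface markers of the sort are not given in the sources used here. If libraries share a culture, p-values measure only the spread between these samples.

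The proteasome is the protease that degrades ubiquitin-tagged proteins. Its core particle is a barrel of outer alpha rings and inner beta rings, and a regulatory particle of ATPase and non-ATPase subunits recognises, unfolds and feeds in the substrate. Interferon gamma induces replacement catalytic subunits and the activator PA28, and dendritic cells are known for carrying this immunoproteasome, which favours peptides that fit MHC class I molecules.

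Total counts were 54846746 to 67973086 per library, and the members took 0.413% to 0.443% of them in 6 libraries and 0.575% in mature replicate 3. That library stood apart. Of the 42 members tested, 37 were higher in it than in every other mature library, with a median log2 ratio of 0.50 to the mean of mature replicates 1, 2 and 4, against 0.00 over all genes tested. Results are therefore given with and without it. The dendritic marker list was present in both groups, with all 12 genes detected and a summed level of 10761 to 11486 CPM (counts divided by the TMM-adjusted library size) in immature and 14762 to 20419 CPM in mature libraries. Cd74 alone stood at 6419 to 6846 CPM in immature and 7405 to 11458 CPM in mature libraries. The list includes Ccr7, Cd80 and Cd86, with log2 fold changes (mature over immature) of 3.62, 2.49 and 3.37. Elsewhere the study marks mature DCs by CD80 and CD86. Itgax went the other way, at -0.41, and Flt3 had only 20 to 36 counts in immature libraries. The 9 macrophage markers summed to 1958 to 2051 CPM in immature and 364 to 416 CPM in mature libraries. The 10 heart muscle markers summed to 4.91 to 5.81 CPM in immature libraries, 26.0 CPM in mature replicate 1 and 524 to 632 CPM in mature replicates 2 to 4, with Myl7 at no more than 3 counts in any library. With mature replicate 1 as the only mature library, a fit in which the 3 immature libraries alone give the spread, 8 members rose and 22 fell, against 20.2% higher and 22.5% lower among all genes tested. The part of the dendritic and macrophage markers in the results was not tested. Because RNA was measured in bulk, fewer cells of a type and less RNA per cell cannot be told apart.

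The inducible and the constitutive members mostly differed in direction. In edgeR's quasi-likelihood test of all 7 libraries, with Benjamini-Hochberg adjusted p-values over 17461 genes, 7 of 42 members tested were higher in mature BMDCs at an adjusted p under 0.05 and 13 were lower, against 46.1% of all genes tested, 23.2% higher and 22.9% lower. Among the 5 interferon-inducible subunits, 4 rose and none fell, with a median log2 fold change of 0.86. Among the 33 constitutive subunits, 1 rose, 13 fell and 19 did not pass, with a median log2 fold change of -0.29. The median over all genes tested was 0.05. Psme1 and Psme2 also passed the criteria of the study (adjusted p below 0.05 and a log2 change of 1 or more in size), and no member passed them on the lower side. Of all genes tested, 23.1% passed these criteria, 13.2% higher and 9.95% lower in mature cells. The mature and immature libraries did not overlap for 10 members with mature higher and 13 with mature lower, against 25.4% and 26.7% of all genes tested.

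**Figure D1:**
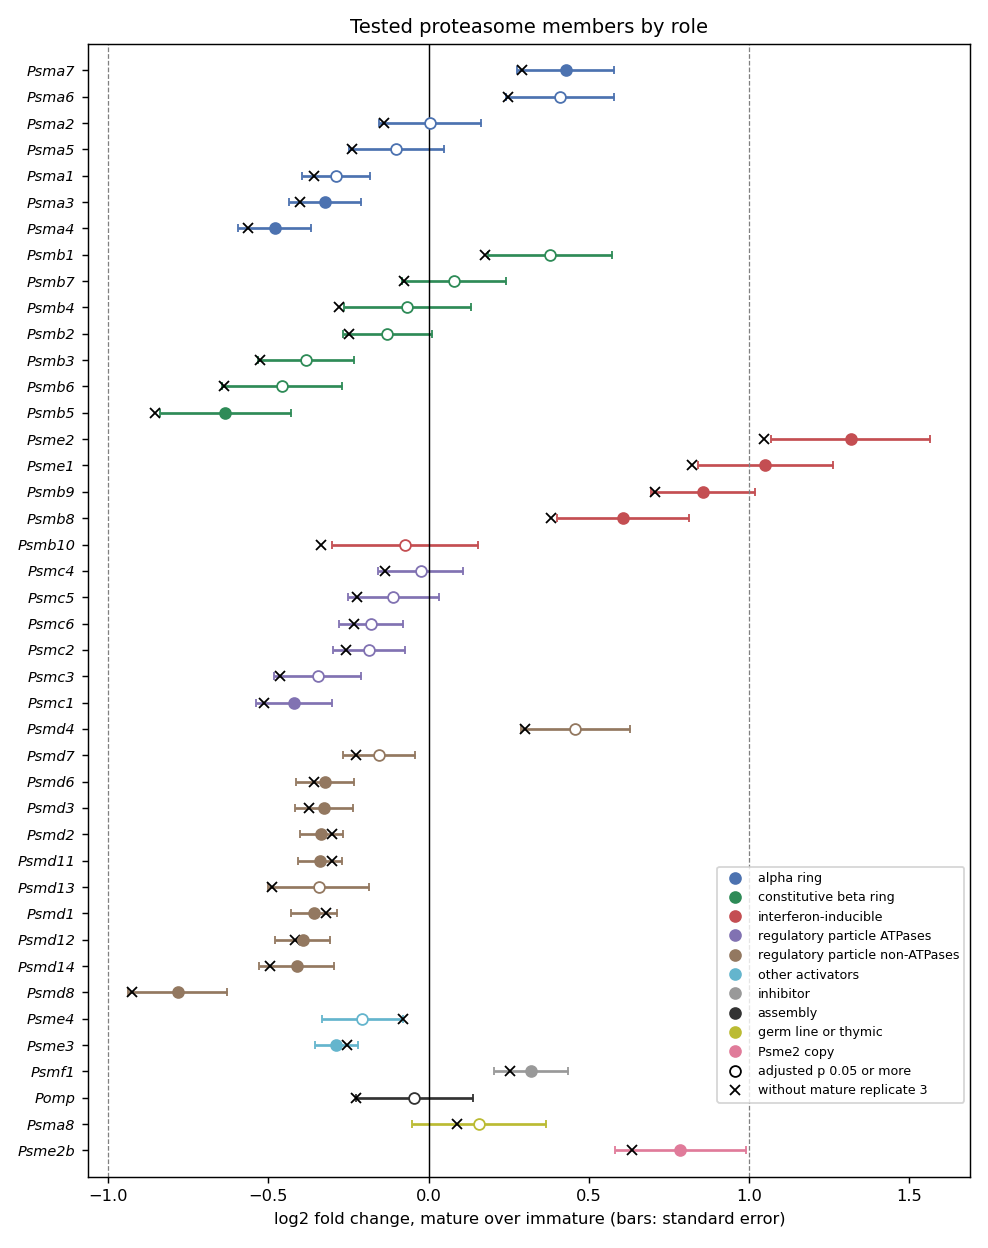
Log2 fold changes of the 42 tested members, mature over immature, with standard errors, grouped by role (colour). Filled circles have an adjusted p under 0.05, crosses are the fits without mature replicate 3, and dashed lines mark a log2 fold change of 1 in either direction. Of the 5 red inducible subunits, 4 lie to the right of 0 and most brown non-ATPase subunits to its left.

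The counts depended on single libraries. Without mature replicate 3, 10 members rose, 4 of them inducible and 4 constitutive. In that fit 28 members fell, 26 of them constitutive and 1 inducible, Psmb10. The share of all genes tested that rose was 29.1% and that fell 28.3%. With immature replicate 1, 2 or 3 left out, 3, 3 and 4 members rose and 9, 7 and 8 fell. Of all genes tested in these fits, 17.3%, 17.7% and 17.2% rose and 18.5%, 18.4% and 18.2% fell. The 4 inducible subunits that rose in the fit of all libraries also rose without mature replicate 3. The median log2 fold change of the constitutive subunits was -0.30 without mature replicate 3, and over all the settings tried it ranged from -0.31 to -0.18. Of the 20 members that passed, 9 did so in all 17 alternatives, namely Psme1, Psme2, Psmb9, Psmd8, Psma4, Psmd1, Psmd2, Psmd11 and Psmd12. Psme3 and Psmd14 passed in 13 of 17, Psme2b in 13 of 16, Psmb8, Psmc1, Psmd3 and Psmd6 in 12 of 17, Psma7 in 11, Psmb5 and Psmf1 in 9 and Psma3 in 5.

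**Figure D2:**
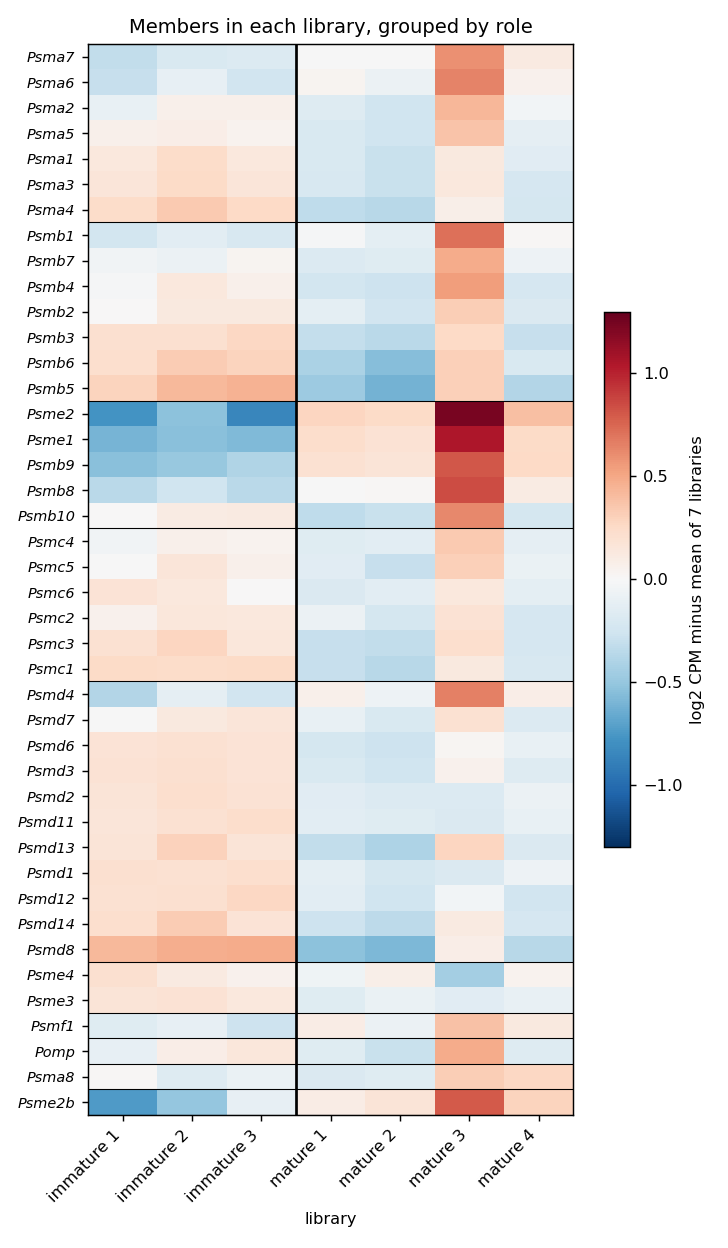
Log2 CPM of each tested member in each library, as the difference from its mean over the 7 libraries (colour scale from -1.3 to 1.3), with rows grouped by role and a vertical line between the immature and the mature libraries. The column of mature replicate 3 is redder than the other mature columns for 37 of 42 members.

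Upstream sequences of Psmb5 and Psmb6 are shown because these constitutive catalytic subunits hold letters that known regulators bind. They come from the RefSeq promoter table of build GRCm38.p6, which matched 36 of the 43 members, and positions count back from the RefSeq transcription start. The letters are TGACNNNGC, the core of the antioxidant response element, a site of the NRF1 and NRF2 factors (capitals). The Psmb5 sequence is chr14:54618023-54618095 on the minus strand and covers bases -100 to -28, and the Psmb6 sequence is chr11:70525257-70525356 on the plus strand and covers bases -100 to -1.
Psmb5: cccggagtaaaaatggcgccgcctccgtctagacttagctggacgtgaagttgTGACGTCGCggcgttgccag
Psmb6: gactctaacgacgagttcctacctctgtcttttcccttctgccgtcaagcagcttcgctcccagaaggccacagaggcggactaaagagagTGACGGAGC
Both stretches lie outside annotated exons.

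Both strands of the 250 bases before each start were searched. Members were counted once per gene and all promoters once per entry, so the 2 shares differ in unit. Only members with a promoter entry were searched, and the number of inducible subunits among them is not given here. The antioxidant core was held by 4 of 36 members (Psmb5, Psmb6, Psmc6 and Psmd12), 11.1%, and by 10.2% of all 32851 promoters. The interferon regulatory factor core AANNGAAA was held by 8 members, 22.2%, none of them inducible, and by 21.3% of all promoters. The longer interferon-stimulated response element, which holds that core with 2 further bases, was held by Psmb3 and Psmd4, 5.56%, and by 2.98% of all promoters. The first and second shares lay near those of all promoters, and the last rests on those 2 genes. A match describes letters only.

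Psme2 and Psme1 encode the beta and alpha subunits of PA28, the activator cap that opens the core particle without ATP. Psme2 (ENSMUSG00000079197, chr14:55587441-55591113) stood at 91.6, 108 and 87.0 CPM in immature replicates 1 to 3 and at 191, 186, 370 and 206 CPM in mature replicates 1 to 4. Every mature library was above every immature one, and mature replicate 3 was the highest. The log2 fold change was 1.32 (SE 0.25, adjusted p = 0.00254), a rise of 2.49-fold, and 1.05 without mature replicate 3. Psme1 (ENSMUSG00000022216, chr14:55578123-55581528) stood at 156, 162 and 160 CPM in immature and at 279, 271, 491 and 282 CPM in mature libraries. The immature values lay close together and all mature values were higher. The log2 fold change was 1.05 (SE 0.21, adjusted p = 0.00358), and without mature replicate 3 it was 0.82, which is below the criterion of 1.

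Psme2b (ENSMUSG00000078153, chr11:48945354-48946190) is a near-identical copy of Psme2, so reads may have been divided between both genes and each value is uncertain. It stood at 32.5, 38.4 and 50.4 CPM in immature and at 57.8, 60.7, 93.9 and 66.4 CPM in mature libraries. The groups did not overlap and the log2 fold change was 0.79 (SE 0.20, adjusted p = 0.0129).

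Psmb9 and Psmb8 encode the inducible catalytic subunits that replace Psmb6 and Psmb5 in newly built core particles. Psmb9 (ENSMUSG00000096727, chr17:34181987-34187764) stood at 80.7, 83.8 and 90.0 CPM in immature and at 135, 132, 206 and 141 CPM in mature libraries. The groups did not overlap. The log2 fold change was 0.86 (SE 0.16, adjusted p = 0.0025), and 0.71 without mature replicate 3. Psmb9 overlaps Tap1, the peptide transporter gene on the opposite strand, which had a mean of 23148 counts against 7511 for Psmb9, and since the use of strand in counting is not given in the sources used here, reads of the overlap cannot be told apart. Their RefSeq start sites lie 225 bases apart. Tap1 itself rose by less, with a log2 fold change of 0.29 (SE 0.07, adjusted p = 0.00836). Its call was lost in some alternative fit, while its log2 fold change ran from 0.28 to 0.40 over the alternatives.

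Psmb8 (ENSMUSG00000024338, chr17:34197721-34201454) stood at 260, 278 and 260 CPM in immature and at 331, 335, 596 and 358 CPM in mature libraries. The groups did not overlap, and mature replicate 3 was the highest by far. The log2 fold change was 0.61 (SE 0.21, adjusted p = 0.04), and 0.38 without mature replicate 3 (adjusted p = 0.00017). The call was lost when any 1 of the immature libraries was left out, with log2 fold changes that stayed above 0.

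Psmb10, the inducible replacement of Psmb7, was the inducible subunit that did not pass. Psmb10 (ENSMUSG00000031897, chr8:105935735-105938104) stood at 94.8, 102 and 103 CPM in immature and at 75.2, 77.6, 146 and 80.6 CPM in mature libraries. Mature replicates 1, 2 and 4 were below every immature library and mature replicate 3 was above every one. The log2 fold change was -0.07 (SE 0.23, adjusted p = 0.817). Without mature replicate 3 Psmb10 fell by 0.34 on the log2 scale (adjusted p = 0.00043).

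**Figure D3:**
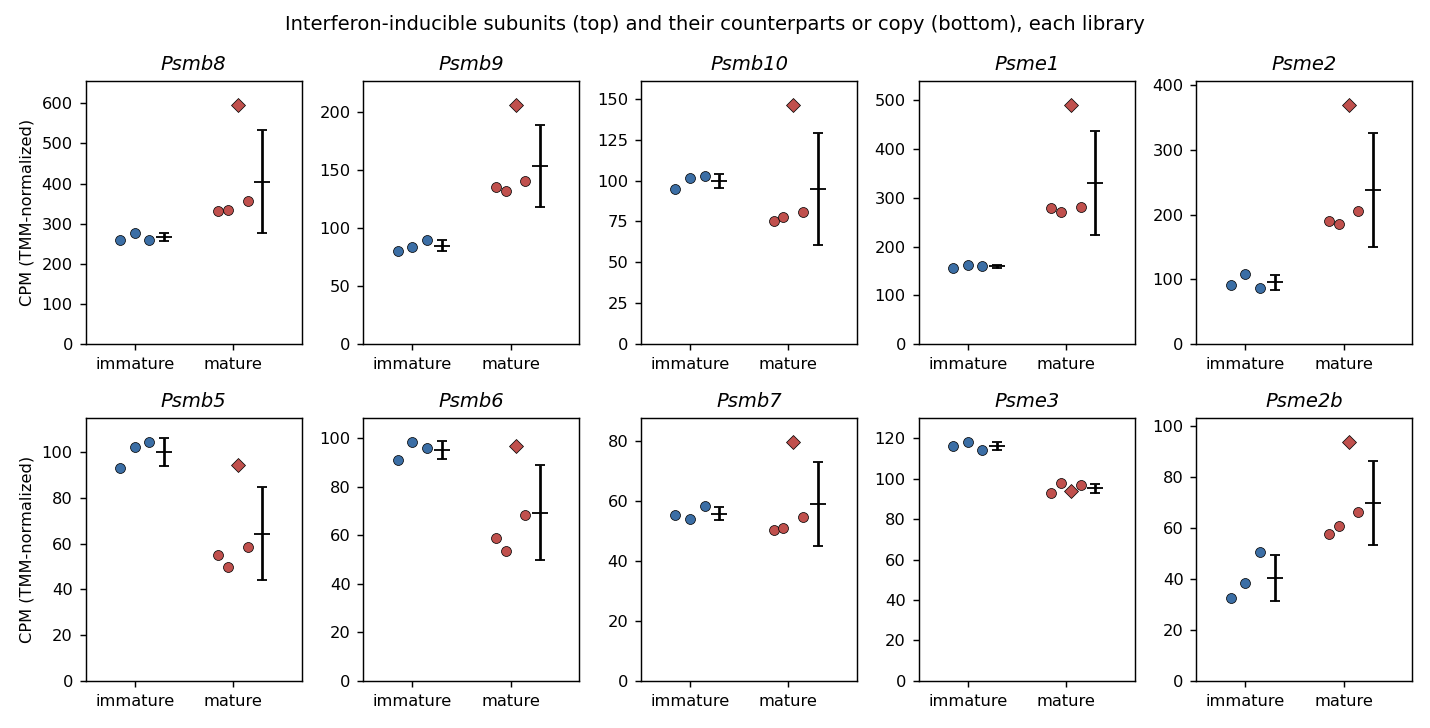
CPM after TMM normalization in each library for the 5 inducible subunits (top) and for Psmb5, Psmb6, Psmb7, Psme3 and Psme2b (bottom), with immature libraries in blue, mature libraries in red, mature replicate 3 as a diamond and group means ± SD in black. The diamond lies far above the other mature libraries for all 5 inducible subunits and within the mature range for Psme3.

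Psmb5 carries the chymotrypsin-like site of the constitutive core, Psmb6 the caspase-like and Psmb7 the trypsin-like site. Psmb5 (ENSMUSG00000022193, chr14:54614119-54618022), whose upstream bases are printed above, stood at 92.9, 102 and 105 CPM in immature and at 54.9, 49.8, 94.4 and 58.6 CPM in mature libraries. Only mature replicate 3 reached the immature range. Psmb5 fell by 0.63 on the log2 scale (SE 0.20, adjusted p = 0.0325), and by 0.85 without that library. The call was lost when any 1 of the other 6 libraries was left out, with log2 fold changes that stayed below 0. Psmb6 (ENSMUSG00000018286, chr11:70525367-70527858) stood at 91.1, 98.6 and 95.8 CPM in immature and at 58.8, 53.4, 96.9 and 68.3 CPM in mature libraries. Again mature replicate 3 alone reached the immature range, and the log2 fold change of -0.46 (SE 0.19, adjusted p = 0.0764) did not pass. Without it Psmb6 fell by 0.64 (adjusted p = 0.00017). Psmb7 (ENSMUSG00000026750, chr2:38588036-38644087) stood at 55.3, 54.0 and 58.5 CPM in immature and at 50.5, 51.3, 79.9 and 54.6 CPM in mature libraries, and the log2 fold change was 0.08 (SE 0.16, adjusted p = 0.724). Psmb7 overlaps Nek6 on the opposite strand, which had a mean of 10906 counts against 3484 for Psmb7.

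The inducible and constitutive partners compete for the same places in the ring, so their levels were compared as ratios of FPKM, a level per gene length and library total, within each library. The FPKM ratio of Psmb8 to Psmb5 was 0.745, 0.721 and 0.661 in immature and 1.60, 1.79, 1.68 and 1.62 in mature libraries. Psmb5 had the higher FPKM in every immature library and Psmb8 in every mature one. The means were 0.709 ± 0.043 (SD, n = 3) and 1.67 ± 0.082 (SD, n = 4), a log2 difference of 1.24 (two-sided exact permutation p = 0.0571, adjusted over 3 ratios 0.0857), where 0.0571 is the smallest p that 3 against 4 libraries allow. The FPKM ratio of Psmb9 to Psmb6 was 0.453, 0.435 and 0.480 in immature and 1.18, 1.27, 1.09 and 1.05 in mature libraries. The groups did not overlap, and the log2 difference was 1.33 (exact permutation p = 0.0571, adjusted 0.0857). The FPKM ratio of Psmb10 to Psmb7 was 3.44, 3.78 and 3.53 in immature and 2.99, 3.03, 3.67 and 2.96 in mature libraries. Those groups overlapped through mature replicate 3, and the log2 difference was -0.19 (exact permutation p = 0.171).

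Mature replicate 3 did not stand apart in the ratios of Psmb8 to Psmb5 and of Psmb9 to Psmb6. Without it the log2 differences were 1.24 and 1.35. The level of a ratio depends on the gene length used. With CPM per kilobase of the principal transcript, the ratio of Psmb8 to Psmb5 was 1.47 in immature and 3.48 in mature libraries, that of Psmb9 to Psmb6 was 0.526 and 1.32, and that of Psmb10 to Psmb7 was 1.58 and 1.40. On this scale Psmb8 was above Psmb5 in both groups. The log2 difference between groups does not depend on a fixed length.

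**Figure D4:**
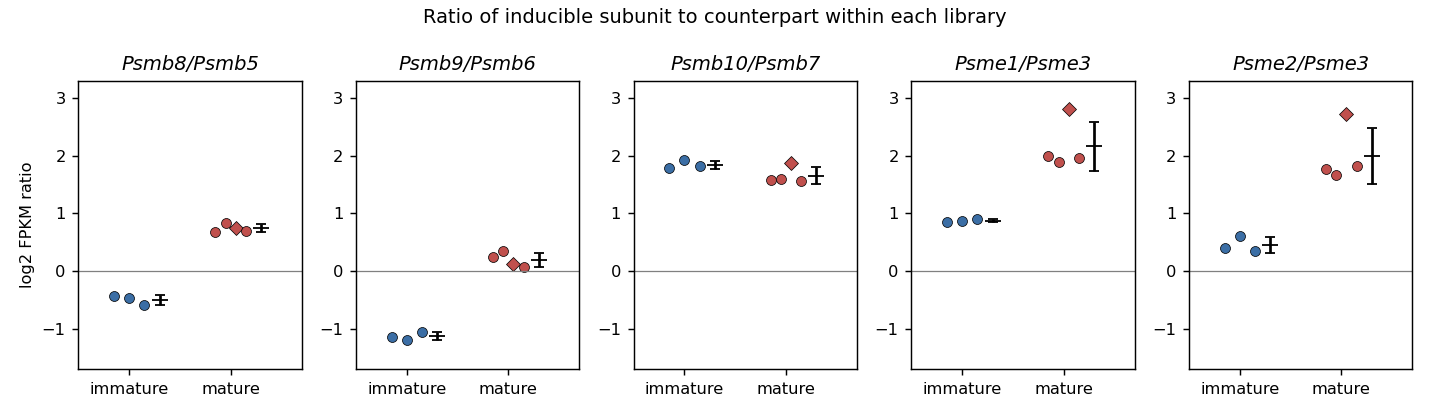
Log2 FPKM ratio of each inducible subunit to its counterpart in each library, with immature libraries in blue, mature libraries in red, mature replicate 3 as a diamond, group means ± SD in black and a grey line where both genes are equal. The ratios of Psmb8 to Psmb5 and of Psmb9 to Psmb6 lie below the line in all 3 immature and above it in all 4 mature libraries.

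Psme3 encodes the nuclear PA28 gamma, which forms a cap of its own. Psme3 (ENSMUSG00000078652, chr11:101316213-101323537) stood at 116, 118 and 114 CPM in immature and at 92.9, 97.7, 93.7 and 96.9 CPM in mature libraries. The mature values were all lower and close together, and Psme3 fell by 0.29 on the log2 scale (SE 0.07, adjusted p = 0.00725). The FPKM ratio of Psme1 to Psme3 was 1.79, 1.83 and 1.87 in immature and 4.01, 3.70, 6.99 and 3.89 in mature libraries, a log2 difference of 1.29 (exact permutation p = 0.0571). That of Psme2 to Psme3 was 1.32, 1.53 and 1.27 in immature and 3.43, 3.19, 6.60 and 3.55 in mature libraries, a log2 difference of 1.55 (exact permutation p = 0.0571, and the same for both ratios after adjustment over the pair). Neither pair of groups overlapped, and without mature replicate 3 the log2 differences were 1.08 and 1.31. Psme4, which encodes the large activator PA200, ranged from 94.3 to 105 CPM in immature and from 67.2 to 95.9 CPM in mature libraries, with a log2 fold change of -0.21 (adjusted p = 0.217). It was lowest in mature replicate 3.

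Of the 11 non-ATPase subunits of the regulatory particle, 8 fell and none rose, with a median log2 fold change of -0.34. Among all genes tested, 22.9% fell and 23.2% rose. The number of non-ATPases that fell was 5 without immature replicate 2 and 10 without mature replicate 3. In those 2 fits 18.4% and 28.3% of all genes tested fell. Psmd8 (ENSMUSG00000030591, chr7:29174188-29180673), a lid subunit, stood at 351, 363 and 366 CPM in immature and at 181, 175, 278 and 204 CPM in mature libraries. All mature values were lower, and Psmd8 fell by 0.78 on the log2 scale (SE 0.15, adjusted p = 0.00324). The large scaffold subunits Psmd1 and Psmd2 fell by 0.36 and 0.33, and Psmd11, Psmd12, Psmd3 and Psmd6 of the lid by 0.32 to 0.39. Psmd14, the deubiquitinase of the lid, fell by 0.41. Psmd1, Psmd2 and Psmd11 were not higher in mature replicate 3 than in the mean of the other mature libraries, and without it they fell by 0.32, 0.30 and 0.30.

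Psmd4, a receptor that binds ubiquitin chains, went against the other non-ATPases. Psmd4 (ENSMUSG00000005625, chr3:95032694-95042614) stood at 99.9, 120 and 109 CPM in immature and at 136, 124, 204 and 138 CPM in mature libraries. The groups did not overlap, but the log2 fold change of 0.46 (SE 0.17, adjusted p = 0.0551) did not pass in all libraries. It passed without mature replicate 3, where it was 0.30 (adjusted p = 0.0059).

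Of the 6 ATPases that unfold substrates, 1 fell and 5 did not pass in the fit of all libraries, where 22.9% of all genes tested fell. Their median log2 fold change in that fit was -0.18, with no value above 0. Without mature replicate 3 all 6 fell, with log2 fold changes from -0.51 for Psmc1 to -0.14 for Psmc4. In that fit 28.3% of all genes tested fell. Psmc1 (ENSMUSG00000021178, chr12:100110154-100123405) stood at 117, 116 and 117 CPM in immature and at 79.5, 76.3, 107 and 84.5 CPM in mature libraries. The immature values were nearly equal and all mature values were lower. Psmc1 fell by 0.42 on the log2 scale (SE 0.12, adjusted p = 0.0188).

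The 7 alpha subunits, which form the gate of the core, were split. Psma4 (ENSMUSG00000032301, chr9:54950790-54958030) stood at 104, 111 and 106 CPM in immature and at 70.1, 68.6, 93.1 and 75.2 CPM in mature libraries. It fell by 0.48 on the log2 scale (SE 0.11, adjusted p = 0.00823), and Psma3 fell by 0.32 (adjusted p = 0.0433), a call that was lost when any 1 library other than mature replicate 3 was left out. Psma7 (ENSMUSG00000027566, chr2:180036374-180042410) stood at 137, 150 and 151 CPM in immature and at 171, 171, 259 and 186 CPM in mature libraries. Its groups did not overlap, and it was the 1 constitutive subunit that rose in the fit of all libraries. Its log2 fold change was 0.43 (SE 0.15, adjusted p = 0.0463). The call was lost without immature replicate 1, 2 or 3 (adjusted p = 0.145, 0.106 and 0.102) and without mature replicate 4 (adjusted p = 0.0606), and held without mature replicate 3 (log2 fold change 0.29, adjusted p = 0.0018). The other 4 alpha subunits had log2 fold changes from -0.29 to 0.41 and did not pass in the fit of all libraries. Without mature replicate 3, Psma6 rose, with a log2 fold change of 0.25 (adjusted p = 0.0078). In that edgeR fit Psma1 and Psma5 fell, with -0.36 (adjusted p = 0.00041) and -0.24 (adjusted p = 0.0035), and Psma2 did not pass.

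Among the 7 constitutive beta subunits Psmb5 was the 1 that fell in the fit of all libraries. The others had log2 fold changes from -0.46 for Psmb6 to 0.38 for Psmb1, and none of them passed. Without mature replicate 3, Psmb2, Psmb3, Psmb4, Psmb5 and Psmb6 fell and Psmb7 did not pass. In that edgeR fit Psmb1 rose, with a log2 fold change of 0.17 (adjusted p = 0.021). The summed CPM of the 33 constitutive subunits was 3498 to 3689 in immature libraries and 2896, 2787, 3924 and 3023 in mature replicates 1 to 4. The mature libraries were lower except for mature replicate 3. The summed CPM of the 5 inducible subunits was 684 to 734 in immature libraries and 1012, 1001, 1809 and 1067 in mature ones, with no overlap.

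Pomp, the chaperone of core assembly (ENSMUSG00000029649, chr5:147860461-147876456), stood at 53.9, 61.8 and 64.1 CPM in immature and at 51.9, 47.5, 81.3 and 51.9 CPM in mature libraries. The log2 fold change was -0.04 (SE 0.18, adjusted p = 0.867), and without mature replicate 3 Pomp fell by 0.22 (adjusted p = 0.028). Psmf1, which encodes the inhibitor PI31 (ENSMUSG00000032869, chr2:151715812-151744186), stood at 37.8, 39.1 and 35.1 CPM in immature and at 45.2, 40.1, 55.0 and 46.2 CPM in mature libraries. The groups did not overlap, and the log2 fold change was 0.32 (SE 0.12, adjusted p = 0.0495). The call was lost without any 1 of the immature libraries and without mature replicate 1 or 4. Psma8 stood between 2.43 and 3.46 CPM in all libraries, with a log2 fold change of 0.16 (adjusted p = 0.578). Psmb11 had 4 counts in mature replicate 1 and 0 elsewhere, was not tested, and gets no fold.

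The place of mature replicate 3 went with transcript length. Its log2 ratio to the other mature libraries had a Spearman correlation of -0.41 with the union length of all exons over 17436 genes. Over the 42 members it was -0.46 with that same length and -0.65 with principal transcript length. The members share these 4 libraries, and genes are not independent replicates. Psme2 lay 0.93 above the other mature libraries and Psme4 0.46 below them on the log2 scale. With a fit offset by a trend on length, 9 members rose and 18 fell, against 26.1% higher and 24.6% lower among all genes tested.

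**Figure D5:**
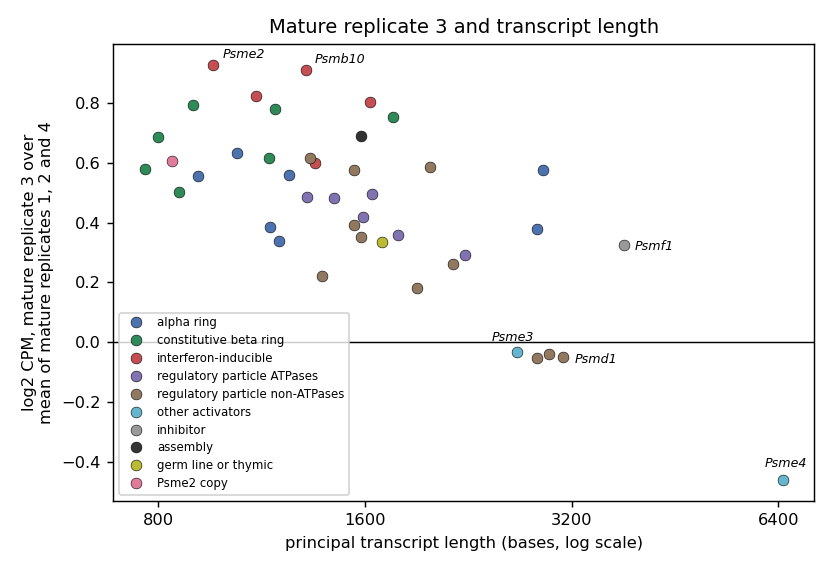
Log2 CPM of mature replicate 3 over the mean of mature replicates 1, 2 and 4 for each of the 42 tested members, against the length of the principal transcript (log axis), coloured by role. Of the members, 37 lie above 0, and the 5 below it have principal transcripts of 2664 bases or more.

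Other genes of the pathway were read from lists. Beside the counts of each list stand the shares of all genes tested, 23.2% higher and 22.9% lower. Of 14 tested proteasome genes outside the rule, 1 rose, 3 fell and 10 did not pass, with a median log2 fold change of -0.19. The core assembly chaperone Psmg4 rose, to 15.3 to 33.0 CPM in mature libraries, all above the immature ones, with a log2 fold change of 0.95 (adjusted p = 0.0202). The 33.0 CPM was that of mature replicate 3. The call of Psmg4 was lost in some alternative fit, with log2 fold changes from 0.64 to 1.07 over the alternatives. Usp14, a deubiquitinase of the regulatory particle, fell by 0.63 (adjusted p = 0.000135), and Akirin2, which carries proteasomes into the nucleus, fell by 0.67 (adjusted p = 0.00165).

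Of 17 tested regulators, 8 rose, 3 fell and 6 did not pass, with a median log2 fold change of 0.21. Of all genes tested, 23.2% rose and 22.9% fell. The NF-kappa B subunits Relb and Nfkb1 rose, with log2 fold changes of 2.63 and 1.65, and so did the interferon regulatory factors Irf8 at 2.11 and Irf1 at 0.64. Nlrc5, the class I transactivator, stood at 97.4 to 114 CPM in immature and 71.8 to 137 CPM in mature libraries (log2 fold change 0.17, adjusted p = 0.537), lowest in mature replicate 3. Ifng was too low to test. Nfe2l1, which encodes NRF1, the factor that restores proteasome genes when proteasomes fail, stood at 288 to 296 CPM in immature and at 384 to 458 CPM in mature libraries and rose by a log2 fold change of 0.57 (adjusted p = 0.00064), while Nfe2l2, which encodes NRF2, fell by 1.18 (adjusted p = 3.84e-06).

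Of 18 tested genes of ubiquitin and its carriers, 2 rose, 4 fell and 12 did not pass, with a median log2 fold change of 0.00. Uba7, the activating enzyme of ISG15, rose with a log2 fold change of 1.04, whereas the shuttle Rad23b fell by 0.94 and the arsenite-inducible Zfand2a by 0.57. Of 15 tested genes downstream in the class I peptide pathway, 2 rose, 5 fell and 8 did not pass, with a median log2 fold change of -0.09. Besides Tap1, Tapbpl, a peptide editor, rose with a log2 fold change of 0.74, and the chaperone Calr fell by 0.75 and the peptidase Tpp2 by 0.58. Each of the 4 lists held genes that rose and genes that fell, where 23.2% of all genes tested rose and 22.9% fell. The medians of the lists ran from -0.19 to 0.21, around the 0.05 of all genes tested.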

How the data were processed

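RNA of flow-sorted immature (3 libraries) and mature (4 libraries) BMDCs was analysed, with groups taken from the sample labels. The table deposited by the authors gives raw counts, which are whole numbers. The deposited FPKM values scale counts by library total and by a length that tracks the union of all exons of a gene (98.9% of 18798 genes within 10% of the median ratio to GENCODE M21). The submitters' processing notes name cutadapt 1.9, HISAT2 2.2.1, StringTie 2.1.6, DESeq2, edgeR and build mm9. The settings and the use of strand are not given in the sources used here. The coordinates of 24940 of 28588 matched gene IDs equal those of GENCODE M21 on GRCm38, so coordinates printed here are taken as GRCm38.

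The counts were fitted with edgeR 4.0.16 under R 4.3.3 (low-count filter, TMM, quasi-likelihood test, Benjamini-Hochberg over all genes tested). Standard errors in this fit are the absolute log2 fold change divided by the square root of the quasi-likelihood F value. FPKM ratios were compared by a two-sided exact permutation test over 35 labelings. Members and lists were chosen with earlier results of these data known. The named genes are the 5 inducible subunits, Psmb5, Psmb6, Psmb7, Psme3, Pomp, Psmf1, members past the criteria and the 3 other members with the highest and the lowest log2 fold changes. Any other member named was chosen after its values were seen. From the other lists, the 3 largest changes that passed the test are named, with Nfe2l1, Nlrc5, Irf1, Tap1 and Ifng. Nfe2l2, Ifngr1 and Irf2 were added afterwards. A further gene that these choices would name in the other lists is not reported here. Alternatives were DESeq2 1.42.0, limma 3.58.1 on log2(FPKM + 1) and log2(FPKM + 0.1) for genes that reach an FPKM of 1 in 3 or more libraries, upper quartile scaling, no filter, a length offset, a replicate block and each library left out. The edgeR script was tested on simulated counts. Total counts were 54846746 to 67973086, and floors cover counting error only. Python 3.11.15 with pandas 2.3.3, numpy 2.4.6, scipy 1.17.1 and matplotlib 3.10.9 was used.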

Additional observations from a re-analysis of the deposited data

Results flagged for a closer look

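In 12 of 25 values compared within the mature group, 1 of the 4 libraries lay far from the other 3, and in all 12 it was mature replicate 3. Chance would give about 1 in 20, or 1.25 of 25, and the values share libraries. The measure is the gap of the farthest library to its neighbour divided by the whole range, set against Dixon's critical value at the 95% level. For the CPM of single genes it was 0.947 for Psme1, 0.924 for Psmb10, 0.900 for Psmb8, 0.895 for Psme2, 0.882 for Psmb9, 0.871 for Pomp and 0.861 for Psmb7. For log2 FPKM ratios it was 0.885 for Psmb10 to Psmb7, 0.872 for Psme1 to Psme3 and 0.853 for Psme2 to Psme3. For summed CPM it was 0.919 for the inducible subunits and 0.843 for all members. Mature replicate 3 was the highest in each of the 12.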

How the results depend on the processing

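The 7 members that rose became 4 without a filter, 4 with a replicate block and 3 to 10 with 1 library left out, and the 13 that fell became 7 with the block, 6 with upper quartile scaling, 22 without mature replicates 2 to 4 and 7 to 28 with 1 library left out. Among all genes, the share that rose was 23.2%, and 13.3% without a filter, 18.1% with the block and 27.6% with upper quartile scaling, and the share that fell was 22.9%, and 18.9% with the block, 19.4% with upper quartile scaling and 22.5% without mature replicates 2 to 4, which leaves 1 mature library assumed to vary like the immature ones. The 28 is the value without mature replicate 3, where 28.3% of all genes tested fell. The 7 is that without immature replicate 2, where 18.4% of all genes tested fell. Leaving out immature replicates 1, 2 and 3 gave 3, 3 and 4 rises, against 17.3%, 17.7% and 17.2% of all genes tested. Same-numbered libraries did not deviate together (correlations 0.05, -0.07 and 0.05), so the block rests on a shared number only. Members past the criteria numbered 1 to 2 with 1 library left out (1 without mature replicate 3) and 1 without mature replicates 2 to 4. Of the inducible subunits, 4 rose under every setting except no filter, the block and each immature library left out, where 3 did. Of the non-ATPases, 5 fell with the block, with upper quartile scaling and without immature replicate 2, and their median moved from -0.34 to -0.23 and -0.22 with limma on log2(FPKM + 0.1) and log2(FPKM + 1) and to -0.23 with upper quartile scaling. The sign turned in some alternative for 9 members, none of which had passed: Psma2, Psma5, Psma8, Psmb4, Psmc4, Psmc5, Pomp, Psmb10 and Psmb7. Pomp was 0.016 with the length offset, 0.033 and 0.031 with limma at pseudocounts of 0.1 and 1, 0.026 with the block and length offset, 0.067 with upper quartile scaling and -0.22 to 0.048 with 1 library left out. Psmb10 was 0.037 with upper quartile scaling and -0.34 to 0.022 with 1 library left out, and Psmb7 was -0.12 without mature replicates 2 to 4 and -0.077 to 0.15 with 1 left out. Relative to the main fit, the median of all genes shifted by 0.11 with upper quartile scaling, which tested the same 17461 genes. It shifted by 0.13 with DESeq2 and by 0.12 without a filter. Those 2 medians cover 27808 genes, so their shifts do not measure scaling alone. The fits without mature replicates 2 to 4, with Psme2 and Psme2b summed, and the levels per principal transcript were chosen after seeing the data. Beyond fewer libraries, the causes were not tested.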
